A study of Mus musculus with 10 samples.

Results

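The genes Pou5f1, Nanog and Sall4 encode core transcription factors of the pluripotent state, and their nascent transcription was followed after removal of their partner SOX2. They were selected by symbol, and each was represented by 1 transcribed unit (TU), a stretch of continuous nascent transcription on 1 strand, so that the set held 3 of 16137 TUs with a gene symbol and 3 of 40779 TUs in all. All 3 passed the filter on low counts (more than 10 fragments in at least 2 libraries), as did 28459 TUs in total. TUs on either strand were followed beside each gene if their nearest edge lay within 100 kb of the TU of that gene. They were 39 TUs without a gene symbol, of which 27 passed the filter, and 10 other genes, of which 9 passed.

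Nascent RNA was measured by TT_chem-seq, in which a pulse of 4-thiouridine marks the RNA being made, and the marked pieces are pulled down after fragmentation and read, so that introns, antisense transcripts and intergenic transcripts are read together with exons. The cells were E14 mouse embryonic stem cells (mESC) with genotype SOX2-FKBP, that is, with an FKBP degron joined to SOX2 that lets the small molecule dTAG-13 send the protein to degradation, and the methods state that homozygous clones were used and name IB10 cells for this tag. The not treated group (NT) received DMSO, and the other groups received 500 nM dTAG-13 and were collected after 0.5, 1, 2 and 6 h (hours post depletion on the plots), with 2 libraries in each of the 5 groups. Every group, NT included, carried the tag, was grown with LIF, 1 µM of the MEK inhibitor PD0325901 and 3 µM of the GSK3 inhibitor CHIR99021, and was labelled with 2 mM 4-thiouridine for 10 min. The labels do not say whether replicates were separate cultures, so that p-values measure the spread between these libraries, which may be technical, and with no untagged cells given dTAG-13 among the libraries analysed here, an effect of the compound itself cannot be told apart from loss of SOX2.

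OCT4, the product of Pou5f1, is a POU-domain factor that pairs with SOX2 on composite DNA elements in which a SOX site and an octamer site lie side by side. NANOG is a homeodomain factor that stabilises self-renewal, and SALL4 is a zinc-finger factor that binds AT-rich DNA and recruits the NuRD repressor complex. In embryonic stem cells these factors bind near their own and each other's genes, and Pou5f1 and Nanog are textbook targets of SOX2 together with OCT4.

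The promoters of Pou5f1 and Nanog are printed because they are the sequences at which a direct change in the transcription of these genes could begin. Both are the 250 bases before the annotated start, on the plus strand of GRCm38 (mm10), from RefSeq, and 2 of the 3 genes had an entry in the promoter table (Sall4 had none). In the Nanog promoter, chr6:122707239-122707488, capitals mark a composite SOX-OCT element (CATTGT, any 1 base, then ATGCAAA) that lies on the minus strand and begins 75 bases before the start. In the Pou5f1 promoter, chr17:35505782-35506031, capitals mark a GC box (GGGCGG), the kind of site bound by SP and KLF factors, 45 bases before the start.
Nanog: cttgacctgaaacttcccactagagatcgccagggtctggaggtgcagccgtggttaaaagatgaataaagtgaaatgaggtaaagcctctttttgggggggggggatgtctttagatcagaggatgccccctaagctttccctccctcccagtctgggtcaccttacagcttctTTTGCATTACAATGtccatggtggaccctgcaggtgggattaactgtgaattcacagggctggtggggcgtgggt
Pou5f1: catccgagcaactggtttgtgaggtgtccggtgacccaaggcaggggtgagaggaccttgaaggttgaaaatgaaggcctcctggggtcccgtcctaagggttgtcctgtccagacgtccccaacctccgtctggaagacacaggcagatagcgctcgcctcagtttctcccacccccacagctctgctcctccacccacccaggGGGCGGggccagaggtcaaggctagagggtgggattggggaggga

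The complete composite element was found on either strand in 2 of 32817 promoter windows of this length (0.00609%), and the Nanog promoter was among them. A shorter form (CATTGT, any 1 base, then ATGC), which the complete element contains, was found in 19 windows (0.0579%). The SOX hexamer CATTGT, part of both forms, was found in 3510 windows (10.7%), the octamer ATGCAAAT in 526 (1.6%) and the GC box in 10738 (32.7%). The printed Pou5f1 promoter held neither form of the composite element, nor the hexamer or the octamer, which says only that these letters are not in this window. Between 100 kb before and 100 kb after each TU, the complete element had 1 match at Nanog, the promoter match, and 0 at Pou5f1 and Sall4. The genome held 164 matches, or 0.0619 per Mb. The shorter form had 1 match at Nanog, within the same site, and 0 at Pou5f1 and Sall4, against 4843 in the genome (1.83 per Mb). The matches describe the letters of the reference genome, which is not that of the E14 line, and do not show binding.

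The TU of each gene was longer than the gene. The Pou5f1 TU (chr17:35485764-35535626, plus strand) spanned 49.9 kb, of which the annotated gene (35506032 to 35510777) made up 9.52%. It began 20.3 kb before the gene, ended 24.8 kb after it and also covered Cchcr1 and Psors1c2 on the same strand, which had no TU of their own, so that the Pou5f1 values include any transcription of these genes. The Nanog TU (chr6:122701520-122734338, plus strand) spanned 32.8 kb, of which the gene made up 21.8%, and began 5.97 kb before it. The Sall4 TU (chr2:168711115-168767744, minus strand) spanned 56.6 kb, of which the gene made up 33.3%, and ran for 31.3 kb into the annotated gene Atp9a, which lies downstream on the same strand and had a separate TU beyond, so that the Sall4 values include any transcription of this stretch of Atp9a. The reference annotation lists 7 pseudogenes of Pou5f1 and 2 of Nanog. The methods filter alignments by mapping quality, so reads that fit near-identical copies equally well may be missing from the counts.

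Mean transcription of all 3 genes was lower than NT at each time after SOX2 was removed, and no mean was below 64.9% of NT. The Pou5f1 TU was lowest at 6 h, at 64.9% of NT. The Nanog TU was lowest at 2 h, at 70.4% of NT, and the Sall4 TU at 1 h, at 77.6%, after which it stood at 85.2% at 6 h. In these bulk samples, fewer cells that transcribe a gene and less RNA per cell cannot be told apart. In the normalised counts (CPM) that follow, a value is the number of fragments in the TU scaled by the library total and its TMM factor.

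**Figure D1:**
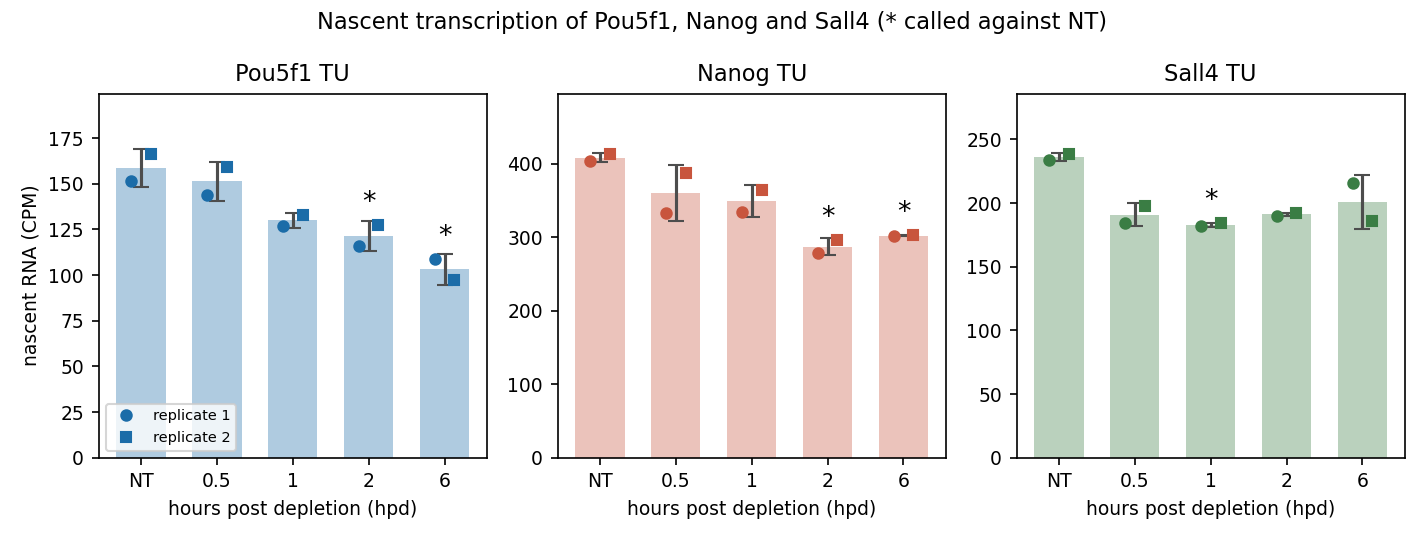
Nascent RNA of the Pou5f1, Nanog and Sall4 TUs in CPM (vertical axes, from 0) in NT cells and at 0.5, 1, 2 and 6 h (horizontal axes). Bars are means of 2 libraries with SD, points are libraries, and stars mark groups called against NT. Pou5f1 was lowest at 6 h (mean 103 CPM), Nanog at 2 h (288 CPM) and Sall4 at 1 h (183 CPM).

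Pou5f1 was at 151 and 166 CPM in NT replicates 1 and 2, at 144 and 159 CPM at 0.5 h, and at 127 and 133 CPM at 1 h. It was at 116 and 127 CPM at 2 h and at 109 and 97.3 CPM at 6 h. The libraries at 0.5 h overlapped the NT range, while every library at 1, 2 and 6 h lay below both NT libraries. In order of level, 0.5 and 1 h were separate, 1 and 2 h overlapped, and both 6 h libraries lay below those at 2 h. The group means and SD were 159 ± 10.5 CPM in NT and 103 ± 8.27 CPM at 6 h (n = 2 each).

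In the edgeR quasi-likelihood fit over all TUs, Pou5f1 fell by 0.62 on the log2 scale at 6 h (SE 0.107, 95% interval -0.85 to -0.39, adjusted p = 0.00103). The decrease was 0.39 at 2 h, with an interval of -0.61 to -0.16 (adjusted p = 0.0325). At 1 h the log2 fold change of -0.29 was not called (adjusted p = 0.153), and at 0.5 h it was -0.07 (adjusted p = 0.926). The value at 0.5 h turned sign without 0.5 h replicate 1 (0.00504) and without NT replicate 2 (0.00369). The test of the 4 times together gave an adjusted p of 0.00486. The call at 6 h was made under all 17 alternative settings, with an adjusted p of at most 0.0264. The call at 2 h was lost with RLE factors (adjusted p = 0.0536), with only the libraries compared (0.112), and without NT replicate 1 (0.0524), NT replicate 2 (0.239), 1 h replicate 1 (0.0593), 1 h replicate 2 (0.0589) or 2 h replicate 1 (0.187). With only the libraries compared, Pou5f1 was also called at 1 h (-0.27, adjusted p = 0.044).

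Nanog was at 404 and 413 CPM in NT. It was at 333 and 387 CPM at 0.5 h, at 334 and 365 CPM at 1 h, at 279 and 296 CPM at 2 h and at 302 and 303 CPM at 6 h. Every library given dTAG-13 lay below both NT libraries. The libraries at 0.5 and 1 h overlapped each other, and those at 2 h lay below those at 6 h. Means and SD were 408 ± 6.51 CPM in NT, 288 ± 11.9 CPM at 2 h and 302 ± 0.324 CPM at 6 h (n = 2 each).

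Nanog fell by 0.51 on the log2 scale at 2 h (SE 0.107, 95% interval -0.73 to -0.28, edgeR adjusted p = 0.00642) and by 0.43 at 6 h (SE 0.107, interval -0.66 to -0.21, adjusted p = 0.012). The values at 0.5 h (-0.18, adjusted p = 0.674) and 1 h (-0.22, adjusted p = 0.284) were not called, and the former was -0.0735 without 0.5 h replicate 1 and -0.28 without replicate 2. The joint test gave an adjusted p of 0.0206. Without NT replicate 2 the calls at 2 and 6 h were lost (adjusted p = 0.0612 and 0.101). The call at 6 h was also lost without 6 h replicate 1 (0.0775) or replicate 2 (0.0744).

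Sall4 was at 234 and 238 CPM in NT, at 185 and 197 CPM at 0.5 h, at 182 and 184 CPM at 1 h, and at 190 and 192 CPM at 2 h. At 6 h the libraries stood further apart, at 216 and 186 CPM. Every library given dTAG-13 was again below both NT libraries, already at 0.5 h, and the libraries at 0.5, 2 and 6 h overlapped each other. Means and SD were 236 ± 3.34 CPM in NT, 183 ± 1.55 CPM at 1 h and 201 ± 21.2 CPM at 6 h (n = 2 each).

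Sall4 fell by 0.37 on the log2 scale at 1 h (SE 0.102, 95% interval -0.58 to -0.15, edgeR adjusted p = 0.0492), close to the threshold of 0.05. It was not called at 0.5 h (-0.31, adjusted p = 0.224), 2 h (-0.30, 0.0756) or 6 h (-0.23, 0.141), or in the joint test (adjusted p = 0.114), although the intervals at these times lay below 0, from -0.52 to -0.09 at 0.5 h, from -0.52 to -0.09 at 2 h and from -0.45 to -0.01 at 6 h. The call at 1 h was lost with DESeq2 (adjusted p = 0.052), RLE factors (0.0872) and no count filter (0.0777), and without any library other than those of 2 h (0.052 to 0.314). With library totals in place of TMM factors, which moved the median over all TUs to -0.131 at 1 h, -0.155 at 2 h and -0.125 at 6 h, Sall4 was also called at 2 h (-0.42, adjusted p = 0.0133) and 6 h (-0.32, adjusted p = 0.0409). At 2 h it was called as well with a mean of at least 50 fragments as the filter (-0.34, adjusted p = 0.0381). The value at 6 h was -0.33 without 6 h replicate 1 and -0.13 without 6 h replicate 2, and was not called in either case.

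**Figure D2:**
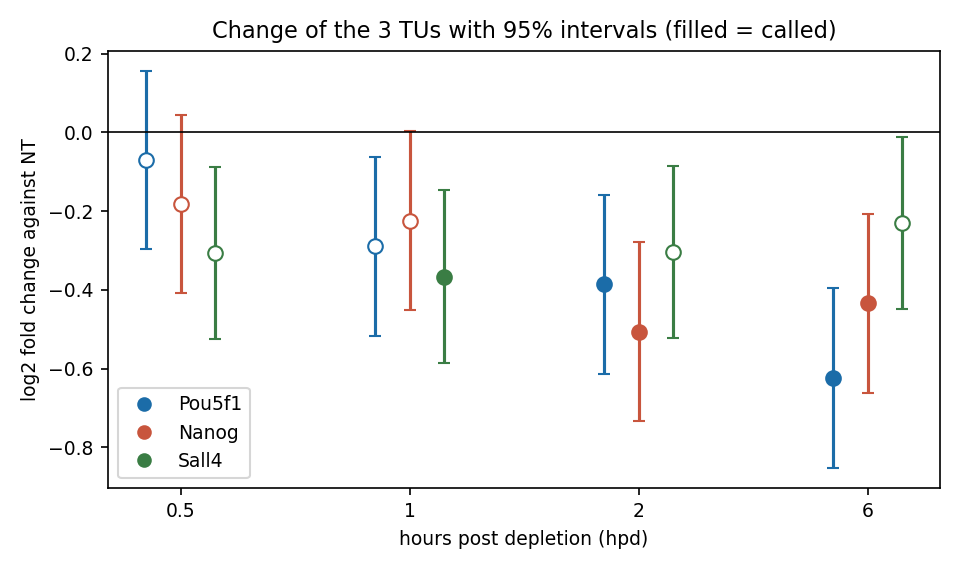
Log2 fold change of the Pou5f1, Nanog and Sall4 TUs against NT (vertical axis) at 0.5, 1, 2 and 6 h (horizontal axis), with 95% intervals from the edgeR fit. Filled points were called at an adjusted p under 0.05. Pou5f1 moves from -0.07 to -0.62, Nanog is lowest at 2 h (-0.51) and Sall4 at 1 h (-0.37).

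In counts, 0 of the 3 genes were called at 0.5 h, when 0.787% of all TUs tested were called down and 0.527% up. At 1 h 1 of 3 was called down (Sall4), against 3.61% of all TUs called down and 2.15% up. At 2 h 2 of 3 were called down (Pou5f1 and Nanog), against 5.57% down and 4.26% up, and at 6 h the same 2 genes, against 9.2% down and 6.61% up. In the joint test 2 of 3 were called, against 12.3% of all TUs. Among the 14997 gene TUs tested, 8.38% had a lower log2 fold change than Pou5f1 at 6 h, 9.29% had a lower one than Nanog at 2 h and 12.2% had a lower one than Sall4 at 1 h. The 4 comparisons share the NT libraries and are not independent of each other.

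None of the 3 genes was called between successive times. The share of all TUs called was 0.109% between 0.5 and 1 h, 0.218% between 1 and 2 h and 0.777% between 2 and 6 h, so that few TUs passed these contrasts. From 2 to 6 h, the log2 difference was -0.24 for Pou5f1 (adjusted p = 0.419), 0.07 for Nanog (0.866) and 0.07 for Sall4 (0.857). With 1 library left out these ran from -0.31 (without 6 h replicate 1) to -0.14 (without 2 h replicate 2), from 0.0315 to 0.15 (without 2 h replicates 1 and 2 in turn), and from -0.0252 to 0.18 (without 6 h replicates 1 and 2 in turn). From 1 to 6 h, where 4.88% of all TUs were called, it was -0.33 for Pou5f1 (95% interval -0.56 to -0.11, adjusted p = 0.0931), -0.21 for Nanog (0.306) and 0.13 for Sall4 (0.519; 0.0185 without 6 h replicate 1 and 0.24 without replicate 2). Pou5f1 was called from 1 to 6 h with only the libraries compared (-0.33, adjusted p = 0.0191). The intervals from 2 to 6 h ran from -0.47 to -0.01 for Pou5f1, from -0.15 to 0.30 for Nanog and from -0.14 to 0.29 for Sall4, so that a continued decrease of Pou5f1 and a partial return of Sall4 were not settled at this number of libraries.

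Levels of the 3 genes were compared per length of TU. In NT, Nanog stood at 12.4 ± 0.198 CPM per kb, Sall4 at 4.17 ± 0.0591 and Pou5f1 at 3.18 ± 0.211 (SD, n = 2). At 6 h the same levels were 9.21 ± 0.00989, 3.55 ± 0.375 and 2.07 ± 0.166 CPM per kb. In each of the 5 groups the libraries of the 3 genes did not overlap, and the order was Nanog, Sall4, Pou5f1. Each level is averaged over a TU of which the gene makes up a minor part.

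Ratios between the genes were taken within each library, where scaling cancels. The log2 ratio of Pou5f1 to Sall4 CPM was -0.63 and -0.52 in NT, -0.36 and -0.31 at 0.5 h, -0.52 and -0.47 at 1 h, -0.71 and -0.59 at 2 h, and -0.99 and -0.94 at 6 h. Each library at 0.5 and 1 h was above both NT libraries, though 1 library at 1 h only by less than the rounding shows, and each library at 6 h was below both. With depleted libraries pooled by the treatment label, the mean differed from NT by -0.04 (8 against 2 libraries, exact two-sided permutation test, p = 0.978, adjusted over 3 pairs 0.978). The ratio of Nanog to Sall4 differed by -0.04 (exact permutation p = 0.844, adjusted 0.978) and that of Pou5f1 to Nanog by 0.00 (exact permutation p = 0.933, adjusted 0.978). The smallest p that this design allows is 0.0444, and for each pair the test pools times that lay on opposite sides of NT, so that a pooled value near 0 does not show an unchanged ratio. The log2 ratio of Nanog to Sall4 was 0.79 in both NT libraries, above this in every library at 0.5 and 1 h (0.85 to 0.99) and below it in every library at 2 and 6 h (0.48 to 0.70). That of Pou5f1 to Nanog was -1.42 and -1.31 in NT, above both at 0.5 h (-1.28 and -1.21) and 2 h (-1.27 and -1.22) and below both at 6 h (-1.64 and -1.47). With 2 libraries against 2, single times could not reach 0.05 in such a test, and the values by time are a description.

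Around the 3 genes, none of the 27 tested TUs without a symbol was called up at any time, and 3 were called down at 1 time or more. Of all TUs without a symbol, 0.943% were called at 0.5 h, 4.23% at 1 h, 7.17% at 2 h and 13.2% at 6 h. Near the 3 genes the counts were 0 of 27 at 0.5 h, 1 of 27 at 1 h, 2 of 27 at 2 h and 2 of 27 at 6 h, shares that lay near or below this background. Of the 39 TUs, 32 were classed as extragenic (20 tested), 4 as antisense to a gene body and 3 as antisense at a gene start (all 7 tested). The median log2 fold change of the 27 was -0.10, -0.29, -0.31 and -0.36 at 0.5, 1, 2 and 6 h, beside -0.02, -0.04, -0.04 and -0.04 for all TUs tested. The latter include the TUs of genes, and the median over all TUs without a symbol was not taken. Some of these TUs held few fragments, and neighbours of 1 gene are not independent.

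**Figure D3:**
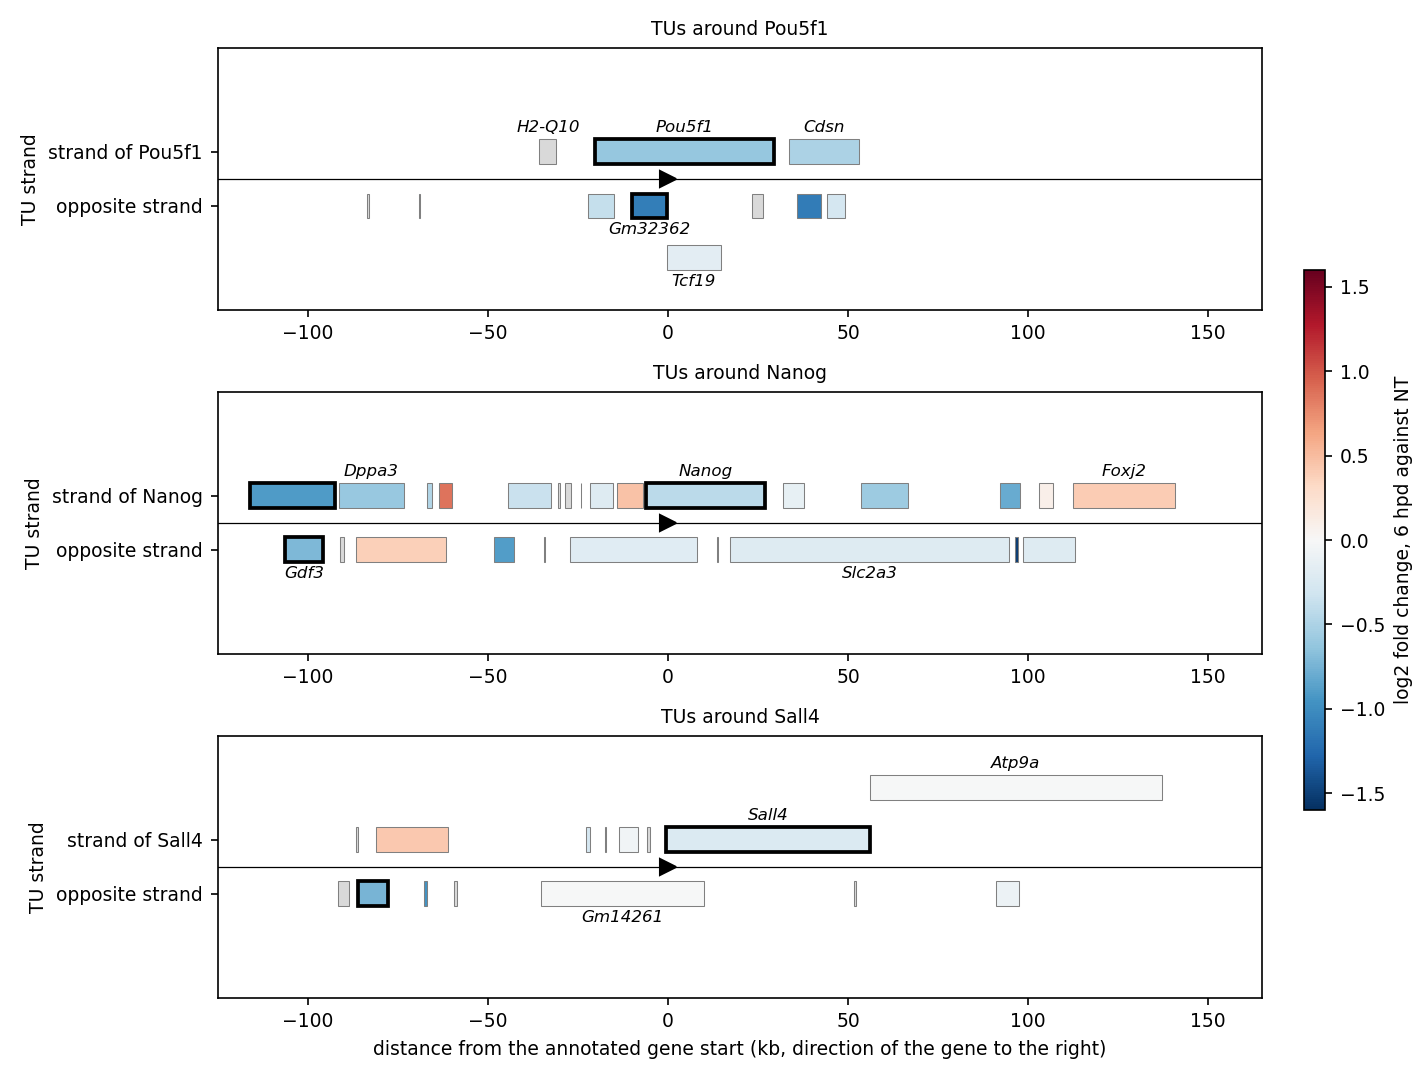
TUs within 100 kb of the Pou5f1, Nanog and Sall4 TUs, drawn to scale by distance from the annotated gene start in kb (horizontal axes). The direction of the gene is to the right, with TUs on the strand of the gene (above the line) and on the opposite strand (below). Colour is the log2 fold change at 6 h against NT, gray TUs were not tested and thick outlines mark the 3 genes themselves and TUs called at 6 h. Besides Pou5f1 and Nanog, the TUs called are Gm32362, Gdf3, the TU opposite Gdf3 and 1 extragenic TU upstream of Sall4, all lower than in NT, while Sall4 was not called.

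At the Pou5f1 locus the clearest change was in Gm32362, a long non-coding RNA gene that starts 0.295 kb from Pou5f1 on the opposite strand, so that the printed Pou5f1 promoter lies between both starts. Gm32362 was at 12.2 and 14.9 CPM in NT, at 10.9 and 13.7 at 0.5 h, at 9.85 and 9.51 at 1 h, at 9.2 and 12.4 at 2 h, and at 5.97 and 6.58 at 6 h. The libraries at 6 h lay below all others. It fell by 1.11 on the log2 scale at 6 h (SE 0.188, edgeR adjusted p = 0.000893), beside -0.62 for Pou5f1; the difference between the neighbours was not tested. At 1 and 2 h its log2 fold changes of -0.49 (adjusted p = 0.149) and -0.33 (0.263) were not called.

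The other genes beside Pou5f1 were not called. Tcf19, a cell cycle gene on the opposite strand, had a TU that ran antisense across the whole Pou5f1 gene, with a log2 fold change of -0.17 at 6 h (adjusted p = 0.542; -0.0428 without NT replicate 1 and -0.27 without 6 h replicate 1), and Cdsn, a skin adhesion gene downstream on the same strand, had -0.50 (adjusted p = 0.22). Of 6 TUs without a symbol, 4 were tested and none was called at 6 h, with a median of -0.49. An extragenic TU of 5.47 CPM that started 14.9 kb before the gene on the opposite strand and overlapped the start of the Pou5f1 TU had -0.38 (adjusted p = 0.37), and between -0.67 and -0.0433 with 1 library left out (the latter without NT replicate 2). A TU of 1.07 CPM classed as antisense at a gene start, opposite Cdsn, 49.1 kb after the Pou5f1 start, had -0.28 (adjusted p = 0.676), and 0.33 without NT replicate 1.

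The Nanog locus held the most neighbours, 21 TUs without a symbol of which 17 were tested, and lies in a cluster with the pluripotency-associated genes Dppa3 and Gdf3. Gdf3, which encodes a secreted TGF-beta family ligand of stem cells, was at 59.1 and 62.3 CPM in NT, at 50.5 and 55.7 at 0.5 h, at 41.3 and 37.0 at 1 h, at 34.7 and 39.4 at 2 h and at 37.2 and 36.6 at 6 h. All libraries from 1 h on lay below those of NT and 0.5 h. Gdf3 fell by 0.63 at 1 h, 0.71 at 2 h and 0.72 at 6 h on the log2 scale (adjusted p = 0.00236, 0.0006 and 0.000397), and the call at 1 h was lost without 1 h replicate 2 (0.0607). Dppa3, a maternal factor that protects DNA methylation imprints, lay between Gdf3 and Nanog at 2.96 CPM and had -0.61 at 6 h (adjusted p = 0.295; -0.37 without 6 h replicate 1 and -0.91 without replicate 2).

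The TU opposite Gdf3, classed as antisense to a gene body and 86.4 kb before the Nanog TU on the strand of Nanog, was at 6.46 and 10.2 CPM in NT, at 5.31 and 7.18 at 0.5 h, at 4.45 and 4.90 at 1 h, at 4.20 and 4.56 at 2 h and at 4.50 and 4.43 at 6 h. It was called down at 1 h (-0.83, adjusted p = 0.046), 2 h (-0.93, 0.0176) and 6 h (-0.90, 0.016). NT replicate 2 was the highest library, and without it the values were -0.45, -0.56 and -0.52 and none was called. The 1 h call was also lost with DESeq2 (0.0732), with a mean of at least 50 fragments (0.0614), or without either library of 1 h (0.282 and 0.171) or of 6 h (0.0702 and 0.0633). The 2 h call was lost without 2 h replicate 1 (0.115), and the 6 h call without 6 h replicate 1 (0.0836) or 2 (0.0939).

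An extragenic TU that started 42.8 kb before Nanog on the opposite strand was at 2.15 and 1.96 CPM in NT and at 0.91 and 0.643 CPM at 2 h. It rested on 32 and 27 fragments in NT and on 18 and 11 at 2 h. It was called at 2 h (-1.39, SE 0.366, adjusted p = 0.0252) and not at 6 h (-0.90, adjusted p = 0.101), where its libraries were at 0.702 and 1.46 CPM and the value was -0.49 without replicate 1 and -1.54 without replicate 2. The call was lost with DESeq2 (0.0833) and without either NT or either 2 h library (0.0657 to 0.0955).

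Across Nanog itself ran an antisense TU of 35.1 kb that started 7.97 kb after the gene start, at 19.0 and 23.3 CPM in NT, 23.3 and 24.7 at 0.5 h, 22.2 and 22.5 at 1 h, 18.7 and 20.6 at 2 h and 18.2 and 18.6 at 6 h. Its log2 fold changes of 0.18, 0.08, -0.11 and -0.20 at the 4 times were not called (adjusted p = 0.757, 0.786, 0.654 and 0.318), with a 95% interval of -0.38 to 0.16 at 2 h, where Nanog was called. Without NT replicate 1 the values ran from 0.0430 at 0.5 h to -0.32 at 6 h and turned sign at 1 h (-0.0425), and without NT replicate 2 they ran from 0.34 to -0.0306 and turned sign at 2 h (0.0416). This TU also covers the Nanog promoter with its composite element.

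The remaining Nanog neighbours of at least 1 CPM were not called. At 6 h, values below 0 were measured in extragenic TUs starting 66.9 kb (-0.48), 44.4 kb (-0.36) and 21.5 kb (-0.21) before the gene on its strand, 53.5 kb after it on its strand (-0.58) and 14.0 kb after it on the opposite strand (-0.41), and in a TU classed as antisense at a gene start beside Foxj2 (-0.21). Values above 0 were measured in extragenic TUs 63.6 kb (0.87), 14.1 kb (0.46) before and 103 kb after the gene (0.09) on its strand and in the TU antisense to Dppa3 (0.38). Adjusted p ranged from 0.0888 to 0.883. With 1 library left out, the sign turned for the TUs at 44.4, 21.5, 14.0 and 103 kb (without NT replicate 2, the last also without 6 h replicate 2), for that at 66.9 kb (without 6 h replicate 1) and for that antisense to Dppa3 (without 6 h replicate 2), so that these have no settled direction. The TU that started 14.1 kb before Nanog ended 0.94 kb before the Nanog TU on the same strand, and was at 0.97 at 1 h (adjusted p = 0.109) while Nanog was at -0.22. Slc2a3, a glucose transporter gene that meets Nanog tail to tail, had -0.21 at 6 h (adjusted p = 0.179), and Foxj2, a forkhead factor, had 0.40 (adjusted p = 0.114).

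**Figure D4:**
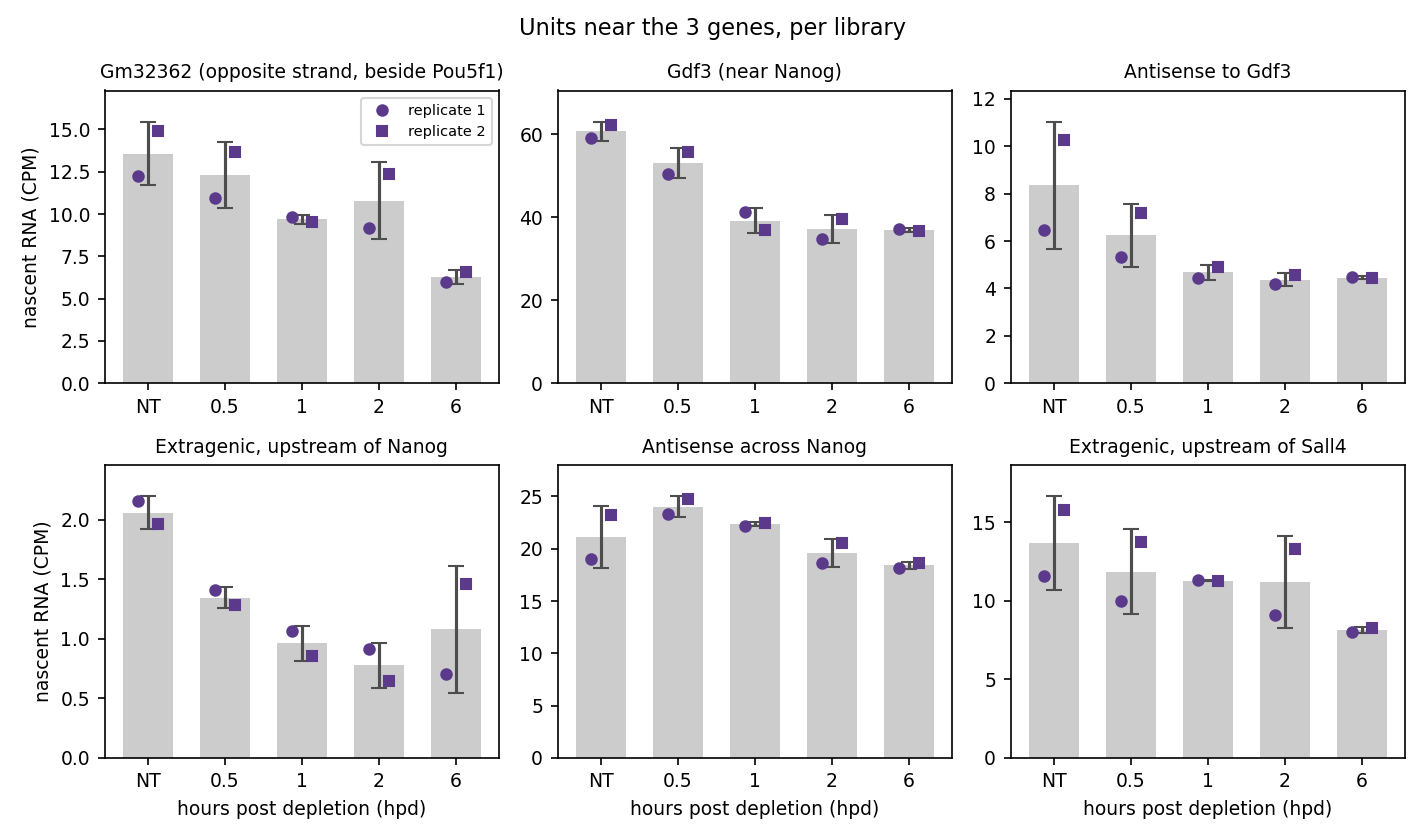
Nascent RNA in CPM (vertical axes, from 0) of 6 TUs near Pou5f1, Nanog and Sall4 in NT cells and at 0.5, 1, 2 and 6 h (horizontal axes). Bars are means of 2 libraries with SD and points are libraries. Gm32362 is lowest at 6 h, Gdf3 and the TU opposite it are low from 1 h on, and the TU antisense across Nanog stays between 18.2 and 24.7 CPM.

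Around Sall4, 6 of 12 TUs without a symbol were tested. The most transcribed, extragenic and starting 77.6 kb before the gene on the opposite strand, was at 11.6 and 15.8 CPM in NT, 9.95 and 13.8 at 0.5 h, 11.3 and 11.3 at 1 h, 9.10 and 13.3 at 2 h and 8.01 and 8.27 at 6 h. The libraries of 1 and 6 h lay below both NT libraries, those of 6 h also below every other library, and the TU was called at 6 h (-0.74, SE 0.212, adjusted p = 0.0268), when Sall4 was not. The call was lost without NT replicate 2 (-0.49, 0.297), 6 h replicate 1 (0.134) or 6 h replicate 2 (0.112). An extragenic TU 81.0 kb before Sall4 on its own strand had 0.43 at 6 h (adjusted p = 0.267), and a TU antisense to a gene body 97.4 kb after the start had -0.10 (adjusted p = 0.894). The latter had 0.19 at 6 h without 6 h replicate 1, and 0.64 at 1 h and 0.81 at 2 h, where it was not called.

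Neither neighbouring gene of Sall4 was called. Gm14261, a non-coding RNA gene whose TU overlaps the start of Sall4 on the opposite strand, had log2 fold changes of -0.26 at 1 h (adjusted p = 0.495) and 0.00 at 6 h (0.995). Atp9a, a flippase gene that follows Sall4 on the same strand, had -0.07 at 1 h (adjusted p = 0.776) and -0.01 at 6 h (0.964). The signs of both at 6 h changed with DESeq2, RLE factors, no count filter and only the libraries compared.

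The 3 genes were set beside 27 other genes of the pluripotency network, chosen with earlier results of these data known. Of these, 4 were called down and 0 up at 0.5 h, 10 down and 1 up at 1 h, 12 and 2 at 2 h, and 17 and 2 at 6 h, with a median log2 fold change of -0.23, -0.43, -0.41 and -0.63. Of all TUs tested, 0.787%, 3.61%, 5.57% and 9.2% were called down and 0.527%, 2.15%, 4.26% and 6.61% up at these times, and their median was -0.02, -0.04, -0.04 and -0.04. Klf2, a Kruppel-like factor of naive pluripotency, fell by 3.50 at 1 h and 3.58 at 6 h (adjusted p = 1.88e-09 and 1.27e-09). Prdm14, which represses differentiation genes, fell by 1.47 and 1.08 (2.41e-06 and 8.85e-06). Nr0b1, an orphan nuclear receptor, fell by 1.68 at 6 h (1.21e-05). Stat3, the effector of LIF signalling, rose by 0.54 at 1 h and 0.35 at 6 h (0.00389 and 0.0243), and Zfx by 0.38 at 6 h (0.0371).

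At 0.5 h 11 of the 27 genes had a lower log2 fold change than Sall4, 15 a lower one than Nanog and 17 a lower one than Pou5f1. At 1 h 15 of the 27 genes had a lower log2 fold change than Sall4, 16 a lower one than Pou5f1 and 18 a lower one than Nanog. At 2 h 13 had a lower value than Nanog and 15 than each of Pou5f1 and Sall4. At 6 h 14 had a lower value than Pou5f1, 18 than Nanog and 20 than Sall4. Sox2 itself, whose protein is removed while its tagged gene remains, was not called at any time, its changes being -0.01, -0.12, 0.09 and 0.06 at 0.5, 1, 2 and 6 h. Its nascent RNA does not report on the protein, so that depletion could not be checked in these libraries.

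**Figure D5:**
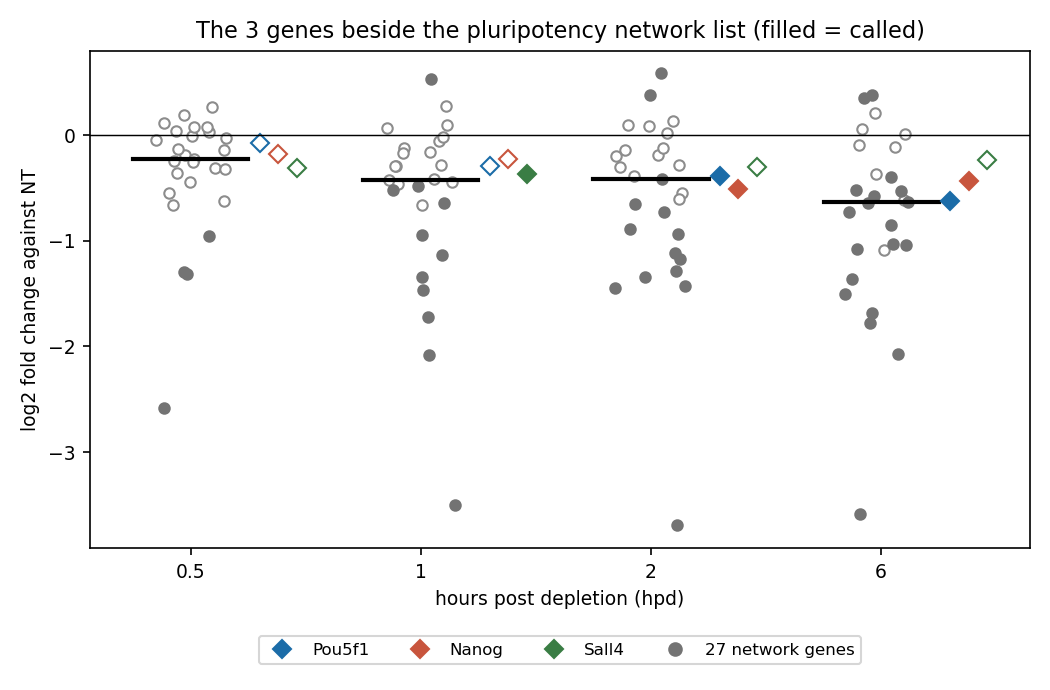
Log2 fold change against NT (vertical axis) at 0.5, 1, 2 and 6 h (horizontal axis) for 27 genes of the pluripotency network (circles, spread sideways for legibility) and for Pou5f1, Nanog and Sall4 (diamonds). Filled symbols were called and horizontal bars are medians of the 27 genes, from -0.23 at 0.5 h to -0.63 at 6 h. Pou5f1 lies at the median at 6 h, and Klf2 is the lowest point at each time.

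A second list held genes for proteins that partner with OCT4, NANOG and SALL4, mainly subunits of NuRD and other chromatin complexes. Of 25 listed, 23 were tested, with 0 called up and 1 down at 0.5 h, 2 and 6 at 1 h, 2 and 5 at 2 h, and 2 and 6 at 6 h, and with medians of 0.03, 0.08, 0.13 and 0.11. The shares of all TUs called were 0.527% up and 0.787% down at 0.5 h, 2.15% and 3.61% at 1 h, 4.26% and 5.57% at 2 h, and 6.61% and 9.2% at 6 h. Wdr5, a subunit of histone methyltransferase complexes, fell by 0.83 at 1 h and 1.18 at 6 h (adjusted p = 0.000311 and 4.95e-06), and Rcor2, a corepressor, by 0.58 and 0.92 (0.00449 and 4.83e-05). Arid3b fell by 0.54 at 1 h (0.00516), and Hdac2, a deacetylase of NuRD, by 0.57 at 6 h (0.00211). Chd4, the remodelling ATPase of NuRD, rose by 0.41 at 1 h (0.0284), Mta3 by 0.40 at 6 h (0.0173) and the histone chaperone Rbbp7 by 0.50 and 0.69 (0.011 and 0.00046).

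Of 9 listed POU and SALL genes, 8 were tested, with 0, 1, 2 and 3 called up and 0 down at 0.5, 1, 2 and 6 h, and medians of 0.00, -0.08, 0.12 and 0.15. Of all TUs, 0.527%, 2.15%, 4.26% and 6.61% were called up at these times. Pou2f3 rose by 0.75 at 1 h and 0.89 at 6 h (adjusted p = 0.000543 and 4.86e-05), Sall3 by 0.74 at 6 h (0.00107), and Pou3f1, a factor of primed and neural cells, by 3.22 at 6 h (9.62e-05) from a low level, with a mean of 0.933 CPM over all libraries. Sall1, a paralogue of Sall4, had -0.30 at 1 h (0.102) and -0.08 at 6 h (0.648).

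The 9 genes whose log2 CPM followed the 3 genes most closely over the 10 libraries are given as a description. Over 10919 candidates of at least 5 CPM, those most like Pou5f1 were Snhg7, a small nucleolar RNA host gene (Pearson's r = 0.994), Llph (0.994) and Gm550 (0.984). Those most like Nanog were Tspan2 (0.959), Atp5b (0.958) and Gm28729 (0.952), and those most like Sall4 were Dppa5a (0.978), Atp8b2 (0.967) and Atp5j (0.965). Between the 3 genes r was 0.84 for Pou5f1 and Nanog, 0.56 for Nanog and Sall4 and 0.45 for Pou5f1 and Sall4, over the same 10 libraries, which share groups and scaling. Dppa5a, a marker of embryonic stem cells, fell by 1.04 on the log2 scale at 1 h and by 0.58 at 6 h (edgeR adjusted p = 0.00116 and 0.023).

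Library totals ranged from 11131490 to 25854106 fragments, and in each library the 3 TUs held between 1551 and 8532 fragments, so that the spread between libraries, and not counting, limited the tests. The sums of marker CPM in this paragraph were scaled by the library total alone, without the TMM factor. These factors were 1.03 and 1.06 in NT and 1.00 and 0.966 at 6 h. The sums are therefore not on the scale of the other CPM values, and their changes between groups include this difference. Markers of the labelled cell type were present throughout: 10 embryonic stem cell genes, the 3 genes among them, summed to 3549 to 3975 CPM in NT and 2851 to 2884 CPM at 6 h. Of these, 1, 3, 4 and 6 were called down and 0 up at 0.5, 1, 2 and 6 h, with Utf1 at -1.14 at 1 h and -1.78 at 6 h (adjusted p = 0.00409 and 6.95e-05) and Dppa4 at -0.63 at 6 h (0.00279). These counts include Sall4 at 1 h and Pou5f1 and Nanog at 2 and 6 h, and of all TUs 0.787%, 3.61%, 5.57% and 9.2% were called down. Markers of other cells stayed low. Primitive endoderm genes summed to 4.52 to 5.06 CPM in NT and 7.0 to 7.35 CPM at 6 h, with Gata6 called up at 2 h (1.14, adjusted p = 0.0295) and the other 3 genes tested, Gata4, Sox7 and Pdgfra, not called at any time (Gata4 between -0.45 and -0.23), and trophoblast genes to 3.95 to 5.82 CPM in NT, 8.15 to 11.2 CPM at 2 h and 4.62 to 4.71 CPM at 6 h, with Eomes called up at 0.5, 1 and 2 h (1.52, 1.64 and 1.79, adjusted p = 0.00145, 0.000182 and 3.98e-05) and Gata3, the other trophoblast gene tested, not called at any time (-0.35, -0.90, -0.70 and -1.06 at 0.5, 1, 2 and 6 h). Primed epiblast and germ layer genes summed to 19.3 to 25.5 CPM in NT and 18.5 to 21.5 CPM at 6 h, where Pou3f1 was called up and Otx2 down (-1.02, adjusted p = 0.00241, and -1.07 at 1 h, 0.00342), and fibroblast genes never exceeded 1.43 CPM. The defining markers Foxa2, Elf5, Hand1, Krt7, T, Fgf5, Sox1, Col1a2 and Postn had no TU. The part of a changing cell state in the decrease of Pou5f1, Nanog and Sall4 was not tested.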

How the data were processed

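TT_chem-seq libraries of SOX2-FKBP embryonic stem cells were analysed in the 5 groups of 2 given by the labels. The authors deposited whole-number counts of fragments for each TU, not normalized, and a table with the positions of TUs on mm10. According to the methods and the submitters' processing notes, the authors aligned reads with BWA 0.7.17-r1188, filtered them with SAMtools 1.10, removed duplicates with Picard 2.12.0, defined TUs per strand on pooled libraries with a hidden Markov model of 2 states, and linked TUs to RefSeq genes. Pooling means that the ends of a TU are the same in every library, and transcription shared by genes on a strand is not separated.

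Members and gene lists were chosen with earlier results of these data known. TUs kept by the filter (over 10 fragments in 2 or more libraries) entered a fit in edgeR 4.0.16 (R 4.3.3; TMM, 1 coefficient per group, quasi-likelihood F-test) over all 10 libraries, with Benjamini-Hochberg adjustment over 28459 TUs and calls under 0.05. The TUs left out held 0.316% of the fragments. The biological coefficient of variation was 10.0%. The procedure was tested on simulated data. Ratios were tested by exact permutation (Python 3.11.15). Intervals cover the fitted spread between libraries. Named were the 3 genes, TUs within 100 kb (those without a symbol if called or of at least 1 CPM), the 3 most alike genes per member, and from each list up to 3 called genes per direction, taken by p, after 1 h and after 6 h, with other list genes named after their values were seen. The values of 1 gene that this rule named are not reported here. Replicates differed beyond counting error (chi-square per degree of freedom 2.69 to 9.03). Tests and counts of calls were also computed with DESeq2 1.42.0, with RLE factors or plain library totals, without the filter or with a filter at a mean of 50 fragments, on the compared libraries alone, with a replicate block and with each library left out, and counts of nearby TUs with another window. Levels per kb, motif counts and the most alike genes had no alternative. Promoters came from a RefSeq table and motifs were searched on both strands.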

Additional observations from a re-analysis of the deposited data

How the results depend on the processing

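For the 3 genes, their ratios, and the counts of TUs, nearby TUs and network genes, 267 of 299 values recomputed under other settings and 366 of 440 with 1 library left out were stable, meaning the same direction and side of the threshold or, for counts, a count within 1.5 times the one reported. Among single TUs nearby, 533 values were stable, 28 changed sign, 21 lost and 1 gained a call, and among other gene list values 1382 were stable and 106 moved. The causes were not tested. With only the libraries compared, Pou5f1 stood at -0.27 after 1 h (called), -0.39 after 2 h (not called) and -0.33 from 1 to 6 h (called), and 1751 TUs were called up after 1 h. With RLE factors, Pou5f1 after 2 h (-0.35) and Sall4 after 1 h (-0.34) were not called, nor was Sall4 with DESeq2 (-0.34) or no count filter (-0.34). Sall4 was called after 2 h with library totals (-0.42) and a mean of at least 50 fragments (-0.34), and after 6 h with library totals (-0.32). The antisense TU across Nanog had -0.00875 after 1 h with library totals. After 6 h, Gm14261 had 0.0271, 0.0275, 0.0195 and 0.0125 and Atp9a 0.0191, 0.0191, 0.0112 and 0.00579 with DESeq2, RLE factors, no count filter and only the libraries compared. DESeq2 called 1025 TUs down after 2 h and 1719 after 6 h. Of the network genes, 2 were up after 1 h with only the libraries compared, and 1 was up after 2 h there and with library totals. A window of 50 kb held 23 TUs without a symbol, 16 tested and 1 called. Deviations of same-numbered replicates correlated above 0.1 in 8 of 10 pairs of groups (range 0.0544 to 0.663). The labels state no shared culture or day, and pairing was to be assumed only if every pair passed, so the fit without the block was kept; a partial pairing remains possible. With the replicate block, 524, 1441, 2713 and 3394 TUs were up and 596, 1747, 2733 and 4036 down after 0.5, 1, 2 and 6 h, 8 network genes were down after 0.5 h, 5 nearby TUs without a symbol were called, Sall4 was called after 2 h (-0.30) and in the joint test (adjusted p = 0.0365), and Pou5f1 from 1 to 6 h (-0.33). Leaving out 1 library at a time, values ranged from -0.14 to 0.00504 for Pou5f1 and -0.28 to -0.0735 for Nanog after 0.5 h, -0.47 to -0.32 for Pou5f1 after 2 h, -0.56 to -0.46 for Nanog after 2 h, -0.44 to -0.40 after 6 h, -0.37 to -0.33 for Sall4 after 1 h, -0.15 to 0.0769 for Nanog from 0.5 to 1 h and -0.0252 to 0.18 for Sall4 from 2 to 6 h. TUs up numbered 21 to 225, 204 to 972, 383 to 2060 and 749 to 2596 at the 4 times, and TUs down 61 to 286, 422 to 1142, 776 to 1670 and 1176 to 2866. Network genes up numbered 0 to 1, 1 to 2 and 0 to 2 after 1, 2 and 6 h, and down 6 to 11 after 1 h. Nearby TUs without a symbol that were called numbered 0 (without NT replicate 2) to 3. The ratio differences ranged from -0.0549 to 0.0480 (Pou5f1 to Nanog), -0.0919 to 0.0151 (Pou5f1 to Sall4) and -0.0681 to 0.00376 (Nanog to Sall4). After 6 h, nearby TUs that changed sign ranged from -0.67 to 0.33 (opposite Cdsn), -0.48 to 0.19 (antisense beyond Sall4), -0.0729 to 0.10 (Gm14261) and -0.0910 to 0.11 (Atp9a), and around Nanog from -1.46 to 0.0473 (66.9 kb), -0.70 to 0.11 (44.4 kb), -0.51 to 0.19 (21.5 kb), -0.22 to 0.57 (103 kb), -0.0536 to 0.70 (antisense to Dppa3) and -0.84 to 0.21 (14.0 kb); the antisense TU across Nanog ranged from -0.0425 to 0.25 after 1 h and -0.25 to 0.0416 after 2 h. Counts of 10 to 36 fragments limit the faintest TU called.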
